A study of Mus musculus with 16 samples.

Results

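The cytosolic ribosome is built from ribosomal RNA and a fixed set of proteins, each encoded by its own gene and needed in nearly equal amounts. The genes for these proteins are counted among the most highly and constantly transcribed genes of a cell. Their messengers typically begin with a run of pyrimidines, the terminal oligopyrimidine (TOP) tract, through which mTOR signalling controls their translation, and their promoters commonly lack a TATA box. In islets, the hormone-secreting cell clusters of the pancreas, beta cells use this machinery to make insulin.

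The promoters of the cytosolic ribosomal protein genes were examined for how accessible their chromatin was in islets of 8 inbred mouse strains. Members were the protein-coding GENCODE genes on chromosomes 1 to 19 whose symbols are Rpl or Rps followed by a number and, at most, the letter a, l or x, together with Rplp0, Rplp1, Rplp2 and Rpsa. The rule found 76 genes, and 73 of them had at least 1 accessible region within 1 kb of an annotated start. These were 86 regions of the 362076 obtained by merging the peaks of all samples. The rule uses no measured signal.

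The assay was ATAC-seq, in which a transposase inserts sequencing adapters into open chromatin. Samples of 50 islets came from untreated mice of the classical strains 129S1_SvImJ (129), A_J (AJ), C57BL/6J (B6), NOD_ShiLtJ (NOD) and NZO_HlLtJ (NZO) and of the wild-derived strains CAST_EiJ (CAST), PWK_PhJ (PWK) and WSB_EiJ (WSB), with 1 female and 1 male sample a strain and 16 samples in all. Ages and the number of mice per sample were not given in the sources used here, so a strain has 2 samples and its spread holds the difference between the sexes. The number of peaks per sample ranged from 80392 to 173735, and the lists hold no read totals, so no depth is set beside a single value. Each peak carries the signal at its summit. The scaled signal used below is that value divided by the sample's median over the 42427 regions that every sample listed, so that 1 is a typical shared region and 0 means that no peak was listed, not that the site was closed.

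The tissue was checked through marker gene promoters. Of 11 islet endocrine genes, 9 had a peak in all 16 samples, Sst had a peak in 1 sample and Ppy in none. No acinar, duct, leukocyte, endothelial or mesenchymal marker promoter had a peak in all samples. The summed scaled signal of each of these 5 lists was at most 1.89 in any sample, and it was highest in the NZO male for every one of them. The summed signal of the islet endocrine genes was lowest in the NZO male (20.1) and highest in the 129 female (27.6). These are the 2 samples with the highest signal at ribosomal protein gene promoters, and the part of other cells in that was not tested. Of 3 liver genes taken as an unrelated tissue, Ttr, which alpha cells also express, had a peak in all samples. In such bulk samples, fewer cells with an open promoter and a less open promoter in every cell cannot be told apart.

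To show what these promoters look like, start sites of members at the top and the bottom of the range of accessibility, of members with a strain difference and of members with missing peaks are printed first. RefSeq sequences (build GRCm38.p6) from 250 bases before to 50 after the start were matched to 56 of the 76 members, using the start nearest to the representative GENCODE start. Each run covers 20 bases before the start and 10 from it on, 5′ to 3′ on the gene's strand, and capitals mark a pyrimidine tract, defined as a C within 10 bases of the start followed by at least 5 bases that are C or T.
Rpl15 chr14:18270977-18271006 minus strand: ggattgtgggagaaagCCTTCTTCCTTTCC
Rpl37 chr15:5116593-5116622 plus strand: gaagtagtttcctgggcggaagcttatcca
Rps19 chr7:24884572-24884601 plus strand: agcactccgaaatctcgcgagactcgacgc
Rpl31 chr1:39367831-39367860 plus strand: cacctcttcctcctcgCCTCCCCgtgaccc
Rps21 chr2:180257359-180257388 plus strand: gcacttaccgaggacccgCCCTCCTgccca
Rps3 chr7:99483700-99483729 minus strand: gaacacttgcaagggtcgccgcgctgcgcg
Rplp2 chr7:141447631-141447660 plus strand: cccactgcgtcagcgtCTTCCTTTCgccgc
Rpl38 chr11:114668560-114668589 plus strand: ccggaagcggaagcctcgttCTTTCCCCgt
Rpl35a chr16:33056433-33056462 plus strand: gaggggcggggcgtgcgtcccacaaggccg
Rps10 chr17:27635235-27635264 minus strand: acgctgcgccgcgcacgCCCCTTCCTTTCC
Rpl23 chr11:97782430-97782459 minus strand: gctggacgaggtccggtcacgtggctgagt
Rpl10l chr12:66284392-66284421 minus strand: agaaatttggcctccattttgcggctggcg

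A tract so defined stood at the start of 28 of the 56 members (50%) and of 19.5% of the 15695 protein-coding genes searched. It was found both at the most accessible member, Rpl15, and at Rpl38, 1 of the least accessible. Among the members with a peak in all samples, the 24 with a tract had a median scaled signal of 2.42 and the 23 without had 1.42. TATAAA 20 to 40 bases before the start was found in 0 of 56 members and in 2.84% of all genes. Both searches depend on the start used. The RefSeq starts of members lay a median of 27.5 bases from the representative GENCODE starts, and 38 of 56 lay within 50 bases. A tract at another start would be missed, so a member without a match cannot be said to lack one.

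Across the whole 300-base window and on both strands, CCGGAAGT, the core of sites bound by ETS family factors, had, of the 5 groups of letters searched, the highest ratio of its share in members to its share in all genes. It lay in 11 of 56 members (19.6%) and in 5.75% of all windows. The stretches around the match are shown for members in which it lay before the start, with the match in capitals. ACTTCCGG is the same site on the other strand, and all runs are written on the gene's strand.
Rps6 chr4:86857440-86857469 minus strand: ttaatctacgcCCGGAAGTaacgcccctct
Rpl37 chr15:5116579-5116608 plus strand: accaagacccgCCGGAAGTagtttcctggg
Rpl41 chr10:128549206-128549235 minus strand: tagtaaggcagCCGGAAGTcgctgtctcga
Rps18 chr17:33955722-33955751 minus strand: agaagcaatttCCGGAAGTggacctccggg
Rps25 chr9:44407630-44407659 plus strand: cacccattgccCCGGAAGTactctctcgag
Rpl35 chr2:39005241-39005270 minus strand: aggaaggcaggACTTCCGGgaagcggaggg
Rpsa chr9:120127566-120127595 plus strand: tcgccccagctACTTCCGGcctggggtctg

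The first base of the match lay 91 bases before the start in Rps6, the protein phosphorylated by S6 kinase, and 23 before it in Rpl37. Among genes with a peak in all samples, to which most members belong, CCGGAAGT lay in 8.68%. The GC box letters GGGCGG were found in 57.1% of members, 49.1% of all windows and 66.2% of those of genes with a peak in all samples, so that members lay above one share and below the other. The same held for the E-box CACGTG, with 8.93%, 8.09% and 10%. CCAAT was found in 30.4%, 38.3% and 40.3%, and AAGATGGC, bound by YY1, in 7.14%, 3.27% and 4.5%. Windows of members held a median of 21.5 CpG and windows of all genes 15, at the same median GC content of 57.3%. A match describes letters only and is no evidence that a factor was bound.

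To see whether these promoters were open in every strain, the samples with a peak were counted for 1 region per gene, the region holding most of the gene's coding starts. A peak was listed in all 16 samples for 65 of 76 members (85.5%), against 52.2% of the 20722 protein-coding autosomal genes. The share was 88.0% of 92 nuclear genes of oxidative phosphorylation and 75.6% of 78 genes of the mitochondrial ribosome. By role, all 3 genes of the stalk, 28 of 29 small subunit genes and 33 of 40 large subunit genes had a peak in all samples.

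Of the 4 paralogs that the rule found, Rps27l, which is broadly expressed, had a peak in all 16 samples and Rpl10l, Rpl39l and Rpl3l had no region in any sample. Rpl10l and Rpl39l are known from male germ cells and Rpl3l from heart and skeletal muscle. Their absence from the lists was shared by every strain and both sexes.

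The other 8 members not listed in all samples, 7 of the large and 1 of the small subunit, had medians over the 16 samples of at most 0.567 (Rpl23a), and their highest values ran from 0.638 at Rpl4 to 1.87 at Rps10. Rpl23, a large subunit protein that also binds Mdm2, was listed in 10 samples and in neither sample of AJ, NOD or PWK. Its scaled signals in the female and the male were 0.793 and 0.188 in 129, 0.274 and 0.157 in B6, 0.505 and 0.272 in CAST, 0.346 and 0.582 in NZO, and 0.142 and 0.17 in WSB. Every listed value lay below that of a typical shared region.

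Rpl8 was listed in 12 samples, with a median of 0.352 and a highest value of 1.05. Rpl6, Rpl19, Rpl26 and Rps10 were listed in 13 samples each, with medians of 0.389, 0.277, 0.518 and 0.477 over all 16. Rpl23a, which with its neighbours forms the docking site of factors at the tunnel exit, was listed in 14 samples, and Rpl4, which lines the tunnel, in 15. In each of these 7 genes the highest value belonged to the 129 female or the NZO male.

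The missing peaks gathered in few samples. The AJ male lacked all 8, the AJ female and the NOD female 5 each, the PWK male 3, the NOD male 2, and the B6 male and the PWK female 1 each. No peak was missing in 129, CAST, NZO or WSB. The AJ male also had the fewest peaks of all samples. Of the 8 genes, 4 (Rpl19, Rpl23, Rpl23a and Rpl26) lie on chromosome 11, where a peak in all samples was listed for 3 of 7 members and for 32.3% of all 1638 protein-coding genes, the lowest share of any autosome. The part of the chromosome in the missing peaks was not tested. The authors' strain lists keep peaks that repeat between the sexes at an irreproducible discovery rate of 0.05 or less. In these lists CAST held all 73 members with a region and AJ 51, and 51 were held by all 8 strains. Missing peaks by sample and the strain lists were counted for members only. These counts therefore cannot be read as particular to ribosomal protein gene promoters.

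**Figure D1:**
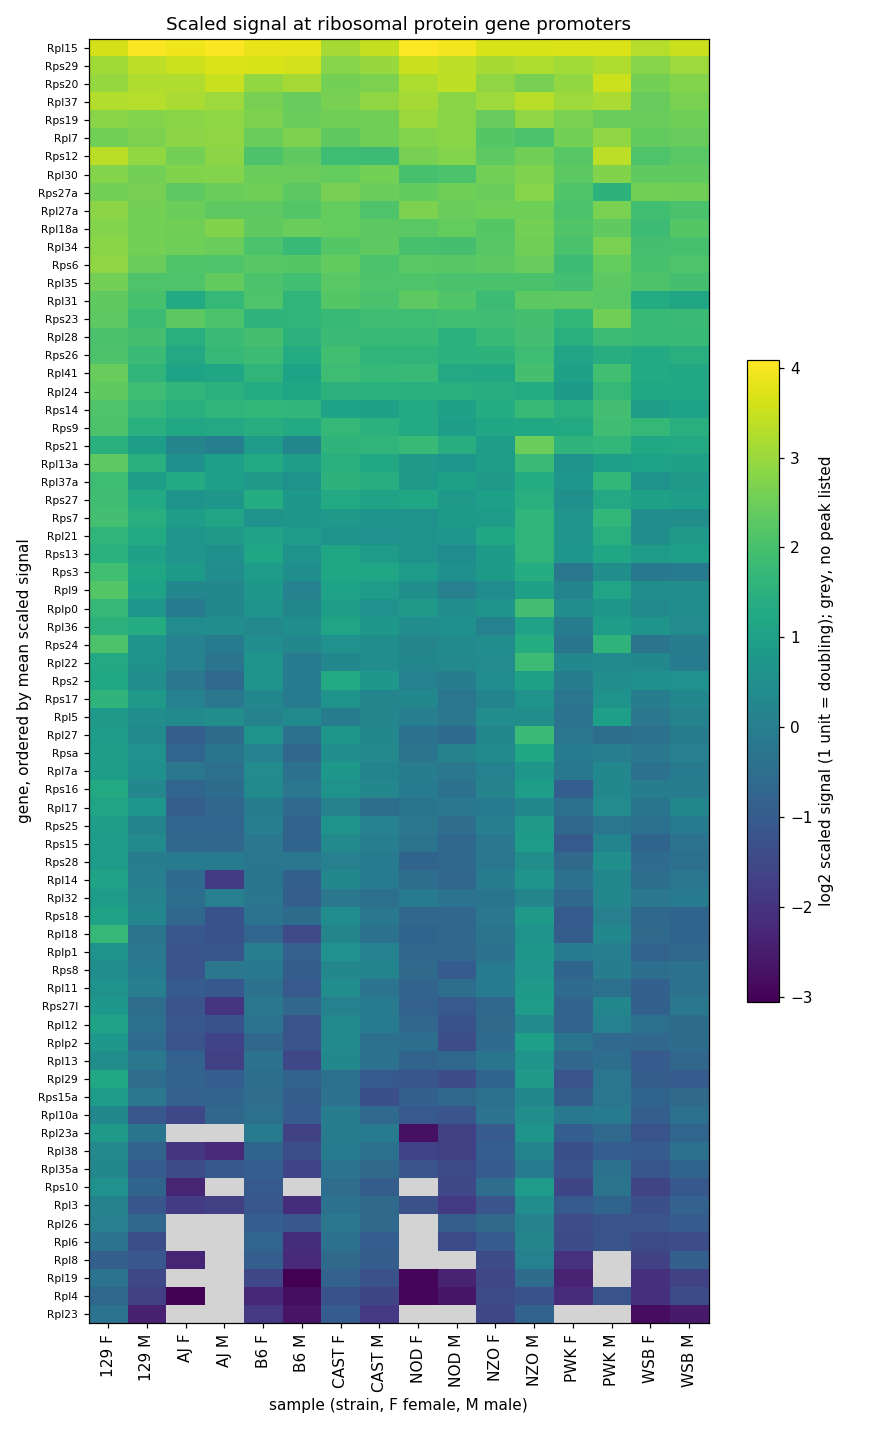
Scaled signal on a log2 scale for 71 of the 73 members with a region (rows, by mean level) in the 16 samples (columns), with grey where no peak was listed. Rpl15 is highest in every sample, and the grey cells lie in the lowest rows, mostly in AJ and NOD.

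Levels differed widely among genes whose proteins the ribosome holds in nearly equal numbers. Over the 65 members with a peak in all samples, the mean scaled signal ran from 0.552 at Rpl3 to 13.4 at Rpl15, a 24.2-fold range, with a median of 1.73 and quartiles of 0.93 and 3.86. The median of all protein-coding promoters chosen in the same way was 2.12, and 27 of the 65 members lay above it. The medians of oxidative phosphorylation and mitochondrial ribosome genes were 2.06 and 2.02. All of these exceeded the median of 1.03 over all shared regions. Small subunit members had a median of 2.05, large subunit members 1.64 and the stalk 0.886.

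Rpl15, a large subunit gene, ranked first in every sample, with scaled signals from 8.72 in the CAST female through a median of 13.1 to 17 in the NOD female. Its region, chr14:18266400-18272046 in mm10, was 5647 bases wide and also holds the start of Nkiras1, so the signal belongs to both genes. Rps29 came next, from 6.89 in the WSB female through 9.4 to 12.8 in the AJ male, and never ranked below 4. Rps29 and Rps20 have no other coding start in their regions.

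Rps20 ran from 6 to 11.6 around a median of 7.67 and Rpl37 from 5.38 to 10 around 8.16. Rps19, the gene most often mutated in Diamond-Blackfan anaemia, ran from 5.36 to 8.08. The ranges of these 3 genes overlapped, and each took ranks from at best 2 or 4 to at worst 8 to 12, so their order among themselves was not fixed.

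At the bottom of the range, Rpl3 ran from 0.229 in the B6 male through 0.457 to 1.36 in the NZO male. Rpl3 reaches towards the catalytic centre of the large subunit. Rpl35a ran from 0.325 to 1.19 around 0.507, Rpl38 from 0.218 to 1.24 around 0.531 and Rpl10a from 0.354 to 1.38 around 0.691. The lowest and the highest of these values differed several-fold within a gene, and the 4 ranges overlapped almost wholly. The lowest value of Rps19 in any sample (5.36) was above the highest value of these 4 genes (1.38, Rpl10a).

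The stalk proteins, which reach out to bind elongation factors, ranged in median from 0.68 at Rplp2 and 0.816 at Rplp1 to 1.51 at Rplp0. Rplp0 ran from 0.938 in the AJ female to 3.84 in the NZO male, and Rplp2 from 0.327 in the AJ male to 1.96 in the NZO male. Rpsa, also known as a laminin receptor, ran from 0.6 to 2.25 around 1.06, and Rps27l from 0.255 to 1.82 around 0.676.

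Wider regions had higher summits. Across the 65 members the correlation of log2 level with log2 width was 0.66 and with GC content -0.60. Both are descriptions across genes, and width and summit come from the same peaks. Widths ran from 622 bases at Rpl27 to 5795 at Rpl41, with a median of 1917 against 1952 for all promoters. The 5′ ends of more than 1 coding gene lie in 13 of the 65 regions (20.0%). The share was 19.6% for all genes with a peak in all samples.

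The summit lay close to the start of the gene. The median distance was 38.5 bases before the start, with quartiles of -89 and 2.5 bases relative to it, and 47 of 65 summits lay before it. The summit was within 200 bases of the start in 59 members (90.8%) and in 66.3% of all promoters. It was farthest in Rpl18 (2584 bases), Rpl41 (1539) and Rpl38 (582.5). The region of Rpl18 (chr7:45717296-45719209) does not hold its representative start. It does hold the RefSeq start of Rpl18 (45718071), so that distance depends on the start used, and it also holds a start of Sphk2. The region of Rpl41 also holds a start of Zc3h10.

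**Figure D2:**
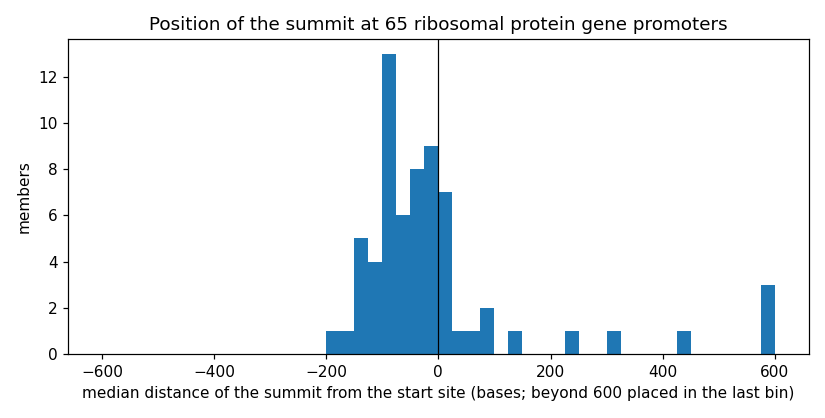
Number of the 65 members by the median distance, over samples, of the summit from the representative start (bases, negative before it). Most bars lie just before 0, with 59 members within 200 bases.

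The signal at these promoters moved from sample to sample together with that of promoters as a whole. The median over the 65 members was lowest in the AJ female (1.18), the PWK female (1.21) and the B6 male (1.25), and highest in the 129 female (3.24), the NZO male (2.58) and the CAST female (2.13). In the same samples all promoters had medians of 1.83, 1.9, 1.65, 2.78, 2.75 and 2.32. The median of members was below that of all promoters in 15 of the 16 samples, with ratios from 0.636 in the PWK female to 0.94 in the NZO male, and above it in the 129 female, with a ratio of 1.17. Female and male of a strain could lie far apart, with 3.24 and 1.94 in 129 and 1.56 and 2.58 in NZO.

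**Figure D3:**
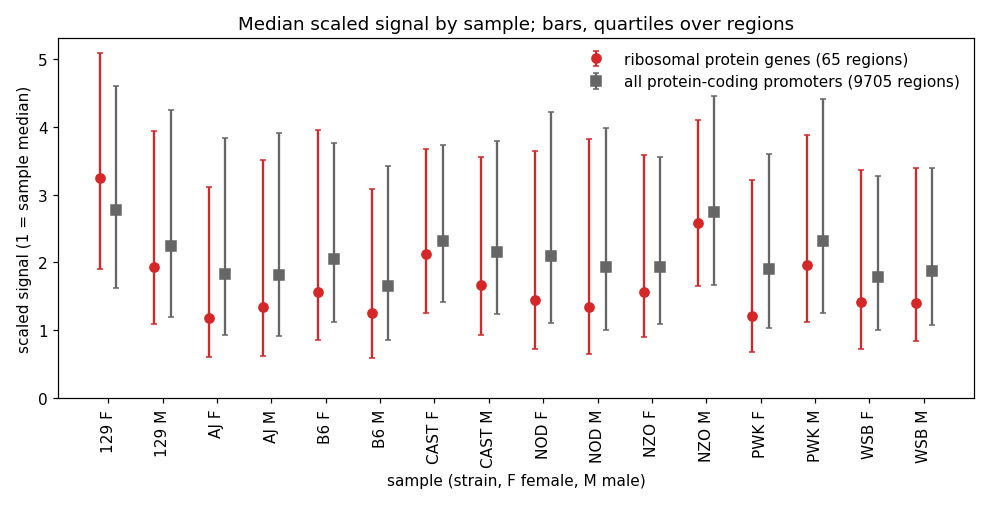
Median scaled signal in each sample for the 65 members (circles) and for 9705 protein-coding promoter regions (squares), with bars from the lower to the upper quartile over regions. The 129 female and the NZO male are highest in both sets, and only in the 129 female do members exceed promoters.

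To ask which members differed between strains, log2(signal + 1), centred on each sample's median over the shared regions, was fitted with strain and sex in limma, with p-values adjusted by the Benjamini-Hochberg method over all 42427 regions. Strain was called at an adjusted p under 0.05 in 10 of 65 members (15.4%) and in 34.9% of all shared regions. Of promoters 21.0% were called, of oxidative phosphorylation regions 13.6% and of mitochondrial ribosome regions 15.5%. At an unadjusted p under 0.05, 23 members (35.4%) passed, as did 37.7% of promoters and 50.8% of all regions. The SD of strain means on the log2 scale had a median of 0.39 in members, 0.32 in promoters and 0.38 over all regions. The residual SD of the fit had medians of 0.37, 0.27 and 0.31 in this order. The lower share of members called therefore does not show that strains differed less there. The part of the larger residual SD in it was not tested. The 10 members called at an adjusted p under 0.05 included Rps2, Rps3, Rps21 and Rpsa of the small subunit and Rplp1 of the stalk. From the large subunit they included Rpl11, Rpl17, Rpl31 and Rpl38. The count of 10 changed with the sample left out. It was highest without the NZO female and also rose without the NZO male. It fell without the 129 female, either AJ sample or the WSB male. It was lowest without either CAST sample, either NOD sample or the WSB female. The share of all regions called, 34.9% in the main fit, rose and fell in the same fits.

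Rps3, which lies where the messenger enters the small subunit, had the smallest adjusted p (0.0182). The female and the male had scaled signals of 3.76 and 2.23 in 129, 1.78 and 1.36 in AJ, 1.83 and 1.42 in B6, 2.25 and 2.22 in CAST, 1.86 and 1.45 in NOD, 1.79 and 2.56 in NZO, 0.871 and 1.41 in PWK, and 0.896 and 0.932 in WSB. Both WSB samples were low. Against the mean of the other 7 strains, WSB was lower by 0.98 on the log2 scale (log2 fold change -0.98 ± 0.24, SE, adjusted p = 0.0338). The strain call was lost without either WSB sample (limma adjusted p = 0.067 without the female and 0.057 without the male), and over all alternatives the adjusted p ran from 0.00278 to 0.0766.

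Rpl31, at the rim of the peptide tunnel exit, had a similar low in WSB. Its scaled signals in the female and the male were 5.07 and 4.06 in 129, 2.46 and 3.22 in AJ, 4.31 and 3.08 in B6, 4.64 and 4.12 in CAST, 5 and 4.4 in NOD, 3.58 and 4.84 in NZO, 4.94 and 4.75 in PWK, and 2.54 and 2.25 in WSB. WSB was lower than the other 7 (log2 fold change -0.77 ± 0.20, SE, limma adjusted p = 0.0394), and AJ, with the next lowest mean, was not called (-0.51 ± 0.20, adjusted p = 0.119, limma). The adjusted p for strain was 0.0442, from 0.011 to 0.168 over the alternatives, and it passed 0.05 when the 129 female, the AJ female or any sample of CAST, NOD, PWK or WSB was left out (0.0608 to 0.168). These were the 2 members called lower in WSB, 3.08% of 65, as were 3.08% of all regions.

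Rpl38, whose loss is known to disturb the patterning of the skeleton in mice, was low in AJ. The female and the male had 1.24 and 0.58 in 129, 0.262 and 0.218 in AJ, 0.595 and 0.398 in B6, 0.914 and 0.75 in CAST, 0.326 and 0.305 in NOD, 0.531 and 1.13 in NZO, 0.403 and 0.531 in PWK, and 0.509 and 0.727 in WSB. The 2 AJ values were the lowest of the 16. AJ was lower than the other 7 by limma (log2 fold change -1.23 ± 0.30, SE, adjusted p = 0.0328), and the adjusted p for strain was 0.0221. Without the AJ female it was 0.055 and without the AJ male 0.0721, within a range of 0.00178 to 0.104 over all alternatives. With either CAST or either NOD sample left out it was 0.0508 to 0.0593.

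Rps21, of the small subunit, had the same low strain. Its values were 2.76 and 1.94 in 129, 1.15 and 1.02 in AJ, 1.83 and 1.17 in B6, 3.03 and 3.04 in CAST, 3.43 and 2.65 in NOD, 1.94 and 5.62 in NZO, 2.98 and 3.19 in PWK, and 2.31 and 2.43 in WSB. The NZO male was far above every other sample. AJ was lower than the other 7 (log2 fold change -1.24 ± 0.30, SE, limma adjusted p = 0.0324), and the adjusted p for strain was 0.0402, with 0.000634 to 0.236 over all alternatives. It passed 0.05 when the B6 male or any sample of AJ, CAST, NOD, PWK or WSB was left out (0.0645 to 0.139). Rpl38 and Rps21 were the members called lower in AJ, 3.08% of 65 against 3.01% of all regions.

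Rplp1 had 1.53 and 0.855 in 129, 0.431 and 0.455 in AJ, 1 and 0.566 in B6, 1.48 and 1.07 in CAST, 0.616 and 0.61 in NOD, 0.778 and 1.65 in NZO, 0.919 and 1 in PWK, and 0.585 and 0.636 in WSB. Its adjusted p for strain was 0.0454 by limma, from 0.00392 to 0.158 over the alternatives, and it passed 0.05 when the 129 female or any sample of AJ, CAST, NOD, PWK or WSB was left out (0.058 to 0.121). No single strain was called. The largest contrast was AJ, at -0.98 ± 0.29 (SE, limma adjusted p = 0.0554).

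Rps2 (adjusted p 0.0476), Rpl11 (0.0477) and Rpsa (0.0486) were called for strain by limma with no single strain called, and each had its 3 highest strain means in 129, CAST and NZO and its lowest in AJ. For Rpsa the call was lost in 20 of 29 alternatives, among them leaving out either sample of 129, AJ, CAST, NOD, PWK or WSB or the NZO male (0.0514 to 0.108). Rpl11 belongs to the 5S particle that binds Mdm2 when ribosome assembly fails. In 7 of the 10 strain-called members the 3 highest strain means were those of 129, CAST and NZO. The lowest mean was in AJ in 8 of the 10 and in WSB in the other 2, Rps3 and Rpl31. All 10 were fitted on the same samples and share their scaling, so these are not independent observations.

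Rpl17 was the 1 member called higher in 129 (1.54%, against 0.957% of all regions). Its values were 2.17 and 1.62 in 129, 0.538 and 0.618 in AJ, 0.964 and 0.651 in B6, 1.1 and 0.721 in CAST, 0.826 and 0.878 in NOD, 0.901 and 1.22 in NZO, 0.726 and 1.31 in PWK, and 0.83 and 1.16 in WSB. Both 129 samples were above all others, and 129 was higher than the mean of the other 7 by 1.11 ± 0.26 on the log2 scale (SE, adjusted p = 0.0379 in limma). Its adjusted p for strain was 0.0488 and ran from 0.00553 to 0.212 over the alternatives, the highest without the 129 female. It also passed 0.05 without the 129 male, the B6 male or any sample of AJ, CAST, NOD or WSB (0.0527 to 0.118).

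Called for a single strain but not for strain as a whole were Rps12 and Rps27a. Rps12 had 10.1 and 7.61 in 129, 6.09 and 7.13 in AJ, 4.27 and 5.1 in B6, 3.62 and 3.55 in CAST, 6.2 and 6.76 in NOD, 4.98 and 5.8 in NZO, 4.68 and 10.4 in PWK, and 4.34 and 4.77 in WSB. It was lower in CAST (log2 fold change -0.75 ± 0.23, SE, limma adjusted p = 0.034), the 1 member of 65 (1.54%) so called, as were 13.4% of all regions, while 6.79% of all regions were called higher in CAST. Its adjusted p for strain was 0.0545. The female and the male of PWK were farther apart than any other pair.

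Rps27a, which is made as a fusion with ubiquitin, had 6.09 and 6.12 in 129, 4.98 and 5.62 in AJ, 5.67 and 4.84 in B6, 6.11 and 5.51 in CAST, 5.19 and 5.65 in NOD, 5.47 and 6.98 in NZO, 4.45 and 2.97 in PWK, and 5.92 and 5.85 in WSB. Its region is shared with Clhc1. Both PWK values lay below all others, and PWK was lower by limma (log2 fold change -0.65 ± 0.19, SE, adjusted p = 0.043), the 1 member of 65 (1.54%) called lower in PWK against 5.69% of all regions. Its adjusted p for strain was 0.199.

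**Figure D4:**
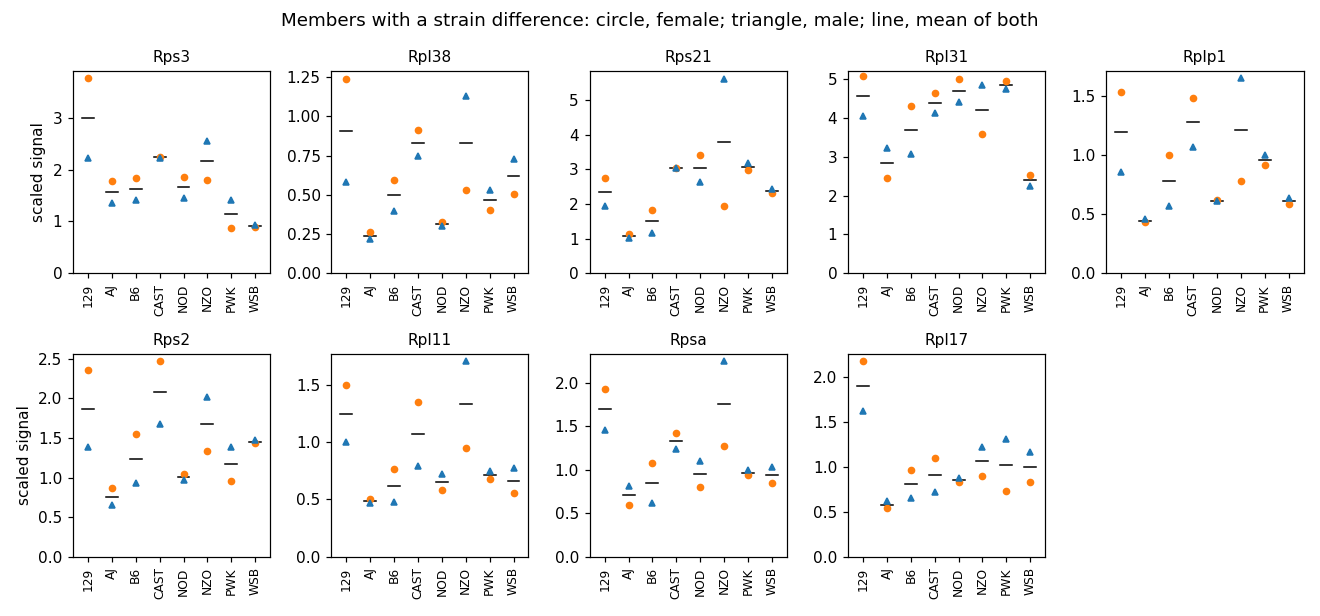
Scaled signal in the female (circles) and the male (triangles) of each strain, with their mean as a line, for 9 of the 10 members called for strain, each on its own axis from 0. AJ holds the lowest mean in 7 panels and WSB in those of Rps3 and Rpl31.

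The calls for single strains also changed when 1 sample was left out, as did the share of all regions called for 129, AJ and CAST. Over the 16 samples left out in turn, the number of members called for 129 and for CAST was highest without the NZO male. For AJ and for NZO it was highest without the NZO female. In these fits the share of all regions called for 129 and for AJ was also above that of the main fit. For 129 there was none without the 129 female, the AJ female, the CAST male, or any NOD or WSB sample. For AJ there was none without any AJ, CAST or NOD sample or the WSB male, for CAST and WSB none without any CAST, NOD or WSB sample, and for PWK none without the PWK male, the B6 female or any sample of 129, AJ, CAST, NOD or WSB.

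No member was called in either direction for B6, NOD or NZO, nor higher in AJ (3.58% of all regions), PWK (5.16%) or WSB (2.56%), or lower in 129 (2.01%). Of all regions, 2.22% were called higher and 2.83% lower in NZO, 1.64% and 1.32% in NOD, and 1.37% and 1.59% in B6. At an unadjusted p under 0.05 in limma, 34 members (52.3%) were higher in 129, against 21.9% of promoters and 12.4% of all regions. In NZO 10 members (15.4%) were higher, against 15.7% and 11.5%, and 1 was lower (1.54%, against 6.14% and 14.2%). In NOD 4 were lower (6.15%, against 4.55% and 7.98%). In B6 2 were lower (3.08%, against 9.17% and 7.89%) and 1 higher (1.54%, against 2.07% and 9.36%). The 34 for 129 depended on the scale. Counted in either direction, it was 13 with promoter centring and 13 with no centring. It also leaned on 1 sample, as the members' median contrast in 129 was 0.58 with all samples and 0.23 without the 129 female.

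With the main centring, the members' median contrast had the sign of that of promoters in 7 of the 8 strains, all but PWK. In each of these 7 it was the larger in size. The contrast of 129 against the other 7 was above 0 in 64 of 65 members, with a median of 0.58, while it was above 0 in 82.3% of all promoters (median 0.28) and 58.8% of all regions (median 0.09). The median of members was 0.23 without the 129 female and 0.97 without the male. In AJ the medians were -0.40 for members, -0.14 for promoters and 0.07 for all regions, and the first was -0.25 without the AJ female. In NOD they were -0.28, -0.01 and 0.04. In NZO they were 0.31, 0.12 and -0.04, and the value for members was -0.04 without the NZO male and 0.65 without the female. In B6, CAST and PWK leaving out 1 sample also changed the sign or the size, with members' medians of -0.16 in B6 (-0.38 without its female and 0.02 without its male), 0.13 in CAST (0.04 and 0.28) and -0.05 in PWK (0.30 and -0.37). In WSB the median was -0.25 (-0.18 and -0.34).

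Among strain means, 129 was highest in 42 of the 65 members (64.6%) and in 31.6% of promoters, and AJ lowest in 27 members (41.5%) and in 26.6% of promoters. Which scale was used mattered for these medians. Centred on promoters in place of all shared regions, the median contrasts of members became 0.28 in 129, -0.19 in AJ, -0.24 in NOD, 0.13 in NZO, -0.05 in WSB and 0.04 in B6, the last from -0.16. Centred within bins of GC content, the medians of members and promoters had opposite signs in AJ (-0.15 and 0.08) and CAST (0.05 and -0.06). The same held for NOD (-0.16 and 0.08), NZO (0.14 and -0.03) and PWK (-0.05 and 0.02). With no centring at all, 49 members were called higher in CAST, 49 lower in PWK and 20 lower in AJ, and the median of all regions shifted by 0.76 in CAST and -0.80 in PWK. Of all regions, 51.6% were then called in either direction for CAST, 55.4% for PWK and 8.11% for AJ.

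Members of low level varied more. The SD of the 8 strain means on the log2 scale had a median of 0.39 over members, 0.32 over all promoters and 0.35 and 0.32 over oxidative phosphorylation and mitochondrial ribosome regions. It was 0.47 in the 32 lower members by level and 0.28 in the 33 upper ones, against 0.38 and 0.26 in promoters divided in the same way. Females and males of 1 strain differed by a median of 0.42 in members and 0.29 in all promoters. The residual SD of the fit was 0.37 and 0.27. Spread within a strain was also larger at the bottom of the range. The larger value of a female and male pair was on average 1.6 times the smaller at Rpl3 and 1.52 times at Rpl35a. At Rpl15 and Rps29, the highest members, it was 1.11 times.

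**Figure D5:**
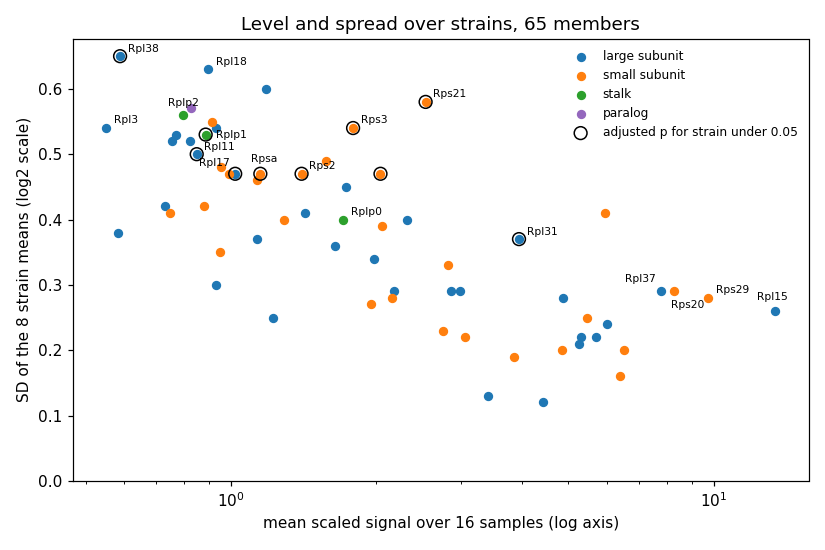
SD of the 8 strain means on the log2 scale against mean scaled signal (log axis) for the 65 members, coloured by role, with rings around the 10 called for strain. Spread is larger at low levels, and 9 of the ringed genes lie below a level of 3.

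Neither sex nor strain class was called in any member. The log2 difference of female and male ran from -0.21 at Rps12 to 0.30 at Rplp2, with 0 of 65 at an unadjusted p under 0.05 in limma, and 0.00943% of all regions were called higher and 0 lower in females. Between the 3 wild-derived and the 5 classical strains, fitted on strain means, 0 of 65 passed an unadjusted p under 0.05, with differences from -0.54 at Rps3 to 0.45 at Rps21. Of all regions, 0.00707% were called higher and 0.0259% lower in wild-derived strains.

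Other genes of translation were set beside the members. Of 23 autosomal genes outside the rule, all had a region and 19 a peak in all samples, with a median scaled signal of 2.55. Strain was called in 6 of the 19, namely Rack1 (adjusted p 0.00545), Hnrnpa1 (0.0137), Eef1g (0.0161), Btf3 (0.0282), Eif3k (0.0305) and Npm1 (0.0397), by the same limma fit. Rack1 is itself a protein of the small subunit and ran from 0.625 to 2.36. Rps3a1, a small subunit protein, falls outside the rule by symbol. It ran from 1.58 to 4.26 and was not called (adjusted p 0.213, limma).

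Among elongation factors, Eef1a1 had a mean scaled signal of 6.51 and Eef2 0.459, with a peak for Eef2 in 13 samples. Of 22 genes of ribosome biogenesis and its control, 18 had a peak in all samples, with a median of 1.84, and 1, Pes1, was called for strain (adjusted p 0.0331, limma). Ubtf, which drives ribosomal RNA transcription, had a peak in 10 samples and Larp1, which binds TOP tracts, in 11. Mtor had a mean of 3.61 and Myc 3.1, and neither was called.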

How the data were processed

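ATAC-seq peak lists of 16 islet samples were used. Per the methods and labels, the authors trimmed reads with cutadapt 2.0, aligned them to mm10 with Bowtie2 2.3.4.1, removed unmapped, mitochondrial and duplicated reads (SAMtools, Picard 2.9.2) and called peaks in each sample with MOSAiCS (FDR 0.05). Any shift for the transposase cut is not given in the sources used here. The deposited summit signal holds whole numbers not scaled to depth, and the deposited mean signal was an alternative. Significance was deposited as −log10 p-values, and the IDR of the authors' strain lists as −log10 values. Read totals are not in the lists and were not used here, so no counting interval is given.

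Overlapping peaks were merged (chromosome Y left out of fits), and a region took the highest summit. Starts came from GENCODE M21, on the same assembly as mm10, within 1000 bases, with 1 region per gene. limma 3.58.1 (R 4.3.3) fitted log2(signal + 1), centred on each sample's median over regions listed in all samples, with strain and sex, and strain classes on 8 strain means. The study tested read counts over a merged peak set, whereas the lists hold summit signal. Fold changes of low signals are understated by the pseudocount of 1. The pipeline was tested on simulated data. Members and lists were chosen with earlier results of these data known.

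Genes were named by a rule: the 6 members with the smallest p for strain, the 6 highest and 4 lowest in level, those not listed in all samples, those called for a contrast, class or sex (the smallest p each), the stalk genes, Rpsa and the paralogs. Rps2 and Rpl11 (called for strain), Rpl18, Rpl27 and Rpl41 (summit or width) and members shown for CCGGAAGT were added after their values were seen. Alternatives were the mean signal, other centrings, quantile normalisation, a pseudocount of 10, regions listed in at least 12 samples, −log10 p of at least 5, equal numbers of peaks, no sex term, a mean-variance trend, other windows and leaving out each sample. Centring within 20 bins of GC content and leaving out the strains AJ, NOD or PWK were added after the data were seen. Some genes that the rule would name are not reported here.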

Additional observations from a re-analysis of the deposited data

Results flagged for a closer look

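The median of members and the named genes were examined in females and in males, as 46 groups of 8 samples. In 8 groups, 1 sample had a gap to its neighbour that was large against the whole range. The cut-off is one that chance passes in about 1 in 20 groups. Several genes were named for their values in these same samples, so the 8 cannot be compared with that rate. In females the sample apart was always that of 129. The median scaled signal of members was 3.24 there, and the next was 2.13 in the CAST female. Rpl17 was at 2.17 (next 1.1), Rplp0 at 3.24 (next 1.93) and Rps12 at 10.1 (next 6.2).

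In males it was always the NZO sample. Rplp0 was at 3.84 there, and the next was 1.66 in the PWK male. Rplp2 was at 1.96 (next 0.75), Rpl3 at 1.36 (next 0.662) and Rps21 at 5.62 (next 3.19). The groups share samples and scaling, so these are not 8 separate events.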

How the results depend on the processing

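Strain was called in 10 members. The count was 8 with the mean signal and 7 with quantile normalisation, where 27.0% and 32.8% of all regions were called. It was 7 of 41 under the stricter threshold (34.7% of all regions) and 13 with no sex term (38.4%), and it moved further elsewhere. With no centring it was 50, with 0 for 129 (0.335% of all regions) and 0 for WSB (3.71%). In that fit AJ had 20 (8.11%), CAST 49 (51.6%) and PWK 49 (55.4%). A mean-variance trend gave 25 and a pseudocount of 10 gave 16, the latter with 5 for 129 (3.46% of all regions). With the trend 129 had 9 (4.58%), AJ 7 (9.41%), B6 1 (3.36%), CAST 5 (21.3%), NOD 1 (3.79%) and NZO 2 (6.49%). Promoter centring gave 3, with 0 for 129, PWK and WSB. In these fits, in this order, strain was called in 62.3%, 41.1%, 40.9% and 21.0% of all regions. With regions listed in at least 12 samples, a missing peak being entered as 0, no member was called for strain (6 at an unadjusted p under 0.05, with 17.9% of all regions called), nor for 129, AJ, CAST, PWK or WSB. For these strains, in this order, 3.64%, 8.28%, 12.9%, 10.1% and 2.99% of all regions were called. The cause of the missing member calls was not tested. The stricter threshold gave 1 for AJ (7.19% of all regions) and left 41 genes with a peak in all samples, from 65. Equal numbers of peaks gave 2 for 129 (3.78%) and 5 for AJ (8.94%). The mean signal gave 0 for AJ (2.52% of all regions) and 2 for PWK (10.2%). With no sex term it was 4 for 129 (3.87%), 4 for AJ (7.62%) and 1 for NZO (6.14%). Quantile normalisation gave 1 each for CAST (16.3%) and WSB (6.46%). Centring within GC bins gave 4 each for 129 (4.91%) and CAST (22.5%). Without the strain AJ 2 members were called for strain and 0 for 129, CAST and PWK. Without NOD it was 1, with 0 for 129, CAST, PWK and WSB, and without PWK 129 had 6 and WSB 1. Leaving out each sample gave 1 to 34 for strain, 0 to 20 for 129, 0 to 20 for AJ, 0 to 1 for B6, 0 to 9 for CAST, 0 to 1 for NOD, 0 to 20 for NZO, 0 to 2 for PWK, 0 to 2 for WSB, and 0 for class and for sex. A left-out sample leaves its strain with 1 sample, assumed to vary like the rest. The share of all regions called for strain moved in these fits too. Windows of 200 bases or gene 5′ ends alone left 77 regions. For the 8 named members called for strain, 110 of 237 adjusted p-values under alternatives were no longer under 0.05. For the 14 not called, 36 of 414 came under it. The ratio of members to promoters was 0.799, and 0.787 and 0.822 by other measures. The additive fit of strain and sex compares the female and the male within each strain. The labels carry no replicate numbers, so no other pairing was possible. Read depth per sample was not used here, and a missing peak in a low member cannot be read as closed chromatin. Processed copies of ribosomal protein genes are many, and the placement of reads near exons was not tested.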

Other observations

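The 4 ribosomal protein genes of chromosome X stand outside the rule and had a peak in all 16 samples. Rpl10 had a mean scaled signal of 2.83 ± 0.413 (SD, n = 8) in females and 2.62 ± 0.312 in males. Rpl36a had 3.83 ± 0.759 and 3.98 ± 0.702, Rpl39 2.76 ± 0.625 and 2.97 ± 0.368, and Rps4x 1.26 ± 0.222 and 1.18 ± 0.29. The log2 difference of female and male was 0.11 ± 0.13 (SE), -0.06 ± 0.12, -0.12 ± 0.12 and 0.12 ± 0.13 in this order, with limma adjusted p of 0.999 each. The female was higher in 5, 3, 1 and 3 of 8 strains. None was called for strain (adjusted p 0.807, 0.183, 0.225 and 0.159, limma).

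Besides the main regions, 13 further regions lay within 1 kb of a start of 10 members, 2 of them listed in all samples and 8 in 3 samples or fewer.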
